A study of Mus musculus with 33 samples.

Results

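RNA from the Zmynd8 gene itself was followed in mouse CH12 cells (a B cell lymphoma line) that carry or lack ZMYND8. The deposited tables hold numbered genomic regions with no gene name. A region was taken as Zmynd8 RNA when it lay wholly inside the gene's RefSeq span on chromosome 2 (chr2:165784152-165898981, GRCm38, 114830 bases, minus strand) and inside no other gene. Of 49745 numbered regions, 6 met this rule. They cover 6191 bases, or 5.39% of the span, and were read singly and as a sum.

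The 4 lines were KO1 and KO2, labelled as ZMYND8 knockout clones, a WT clone, and the parental WT line. Each was cultured for 48 h in an activated or an unactivated state, 3 cultures each, and ribosome-depleted total RNA of the 24 cultures was sequenced. The sources used here do not give the activating stimulus, the way the knockouts were made or the part of the gene that was disrupted. Each knockout line is a clone, so each genotype is represented by 2 lines. All lines share the CH12 background, in which no group carried another labelled allele or agent. The 3 cultures are called biological repeats, with no more said of how far they are separate, so p-values measure the spread between these cultures.

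ZMYND8 is a chromatin reader. Its PHD, bromo and PWWP domains together bind modified histone tails, and it is known to work with the NuRD remodelling complex and with histone demethylases at enhancers and promoters. In B cells it is known for its role at enhancers of the immunoglobulin heavy chain locus and in antibody diversification.

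Zmynd8 reads from high to low positions, so its 3′ end is the lower end of the span. The RefSeq start-window table used here lists 5 start sites, between 74.0 and 100.7 kb from that end. The span itself runs on to 114.8 kb, so a start at its upper end is not among the 5. The members fall in 2 places: 5 of them lie between 3.59 and 35.95 kb from the 3′ end, downstream of every listed start, and region_28986 lies 108.6 kb from it, between the outermost listed start and the 5′ end of the span. The sequences around the outermost and the innermost listed start are shown because every listed start lies between or at them, and nearly all counted RNA lies downstream of both. Each window holds 250 bases before and 50 bases from the start, on the minus strand of GRCm38.p6 as given by RefSeq, and CG pairs are in capitals.
Zmynd8 outermost start, chr2:165884789-165885088: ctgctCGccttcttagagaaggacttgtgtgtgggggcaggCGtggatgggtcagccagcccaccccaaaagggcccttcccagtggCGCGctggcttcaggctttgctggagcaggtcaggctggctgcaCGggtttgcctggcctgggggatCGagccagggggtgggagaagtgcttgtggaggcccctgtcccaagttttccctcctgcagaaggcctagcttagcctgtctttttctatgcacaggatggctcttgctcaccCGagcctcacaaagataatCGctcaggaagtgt
Zmynd8 innermost start, chr2:165858124-165858423: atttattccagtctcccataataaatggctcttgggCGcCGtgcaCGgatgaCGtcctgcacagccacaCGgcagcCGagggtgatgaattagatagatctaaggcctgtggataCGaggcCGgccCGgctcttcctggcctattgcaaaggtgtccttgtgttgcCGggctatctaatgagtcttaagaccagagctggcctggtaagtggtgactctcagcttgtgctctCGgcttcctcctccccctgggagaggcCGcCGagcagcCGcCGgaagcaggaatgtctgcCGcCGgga
The outermost window holds 8 CG pairs and the innermost 17, against a median of 7 over 32851 start windows in the RefSeq table. At least as many CG pairs were present in 48.7% of all windows for the outermost start and in 31.4% for the innermost. GC content was 60.3% in the outermost window and 58.3% in the innermost, with a median of 52.7% over all windows. No numbered region of the tables covers either window, so these data hold no region count at these starts.

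Library depth, as the total estimated count, was 28.99 to 34.07 M with a median of 32.1 M, and numbered regions took 3.78% to 5.48% of it. Of 9 B cell markers, 6 had regions to sum (CPM, counts scaled for depth). Their means were 24.6 CPM for Ebf1, 9.06 for Pax5, 3.93 for Blk, 3.49 for Bank1, 0.216 for Cd79a and 0.0859 for Cd22. The summed B cell markers ranged over 37.2 to 52.2 CPM in unactivated KO and 19.4 to 44.6 CPM in unactivated WT libraries, and over 48.2 to 65.5 CPM in activated KO and 28.1 to 48.8 CPM in activated WT libraries. The T cell, myeloid and NK cell markers that could be summed, 5 of 14 listed, were all below 1 CPM on average, and none was at 0 in all libraries. Of 4 plasma cell markers, 3 could be summed (Prdm1, Sdc1 and Irf4), at 3.24 to 4.94 CPM in activated KO and 1.72 to 2.87 CPM in activated WT libraries, which do not overlap, and at 2.14 to 2.82 CPM in unactivated KO and 0.763 to 2.77 CPM in unactivated WT libraries, which do. Most of the plasma cell sum came from Irf4, at a mean of 2.05 CPM over all libraries, against 0.587 for Prdm1 and 0.0518 for Sdc1. The share of all gene values that do not overlap between activated KO and WT libraries was not counted. The markers' part in the Zmynd8 values was not tested. Among the unactivated libraries, parental WT replicate 3 and WT clone replicate 2 stood apart: their mean correlation with the other libraries of their group was 0.950 and 0.942, against 0.956 to 0.976 in the rest.

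The 6 regions held 1807 counts over the 24 libraries. Their sum averaged 2.33 CPM, or 0.376 CPM per kb of counted region, above 71.2% of the 4503 gene values tested when compared per length. A gene value here is the sum of all regions inside 1 gene. It counts RNA from those pieces alone, whether exon or intron and from either strand, and is no measure of the mature transcript. RNA of Zmynd8 was present in every library of both knockout lines. Since the disrupted part of the gene is unknown, these counts neither check the labels nor say anything about the protein. In bulk RNA, fewer cells with the RNA and less RNA per cell cannot be told apart.

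In activated cells the Zmynd8 sum was 3.01, 4.29 and 3.54 CPM in the 3 KO1 cultures and 2.77, 4.20 and 2.81 CPM in the 3 KO2 cultures. It was 2.42, 2.12 and 3.19 CPM in the WT clone and 2.28, 2.53 and 1.99 CPM in parental WT. All 6 activated KO libraries lay above the WT median, 3 of them lay above the highest WT library, and the groups overlapped through 1 WT clone culture at 3.19 CPM. The KO lines averaged 3.44 ± 0.684 CPM and the WT lines 2.42 ± 0.425 CPM (SD, n = 6 each, 3 cultures of each of 2 lines).

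In unactivated cells the sum was 1.65, 1.64 and 2.15 CPM in KO1 and 2.61, 1.68 and 1.73 CPM in KO2. It was 1.99, 1.53 and 1.40 CPM in the WT clone and 1.67, 1.29 and 1.34 CPM in parental WT. Here 2 of the 6 KO libraries lay above the highest WT library and the groups overlapped. The KO lines averaged 1.91 ± 0.393 CPM and the WT lines 1.54 ± 0.263 CPM (n = 6 each).

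**Figure D1:**
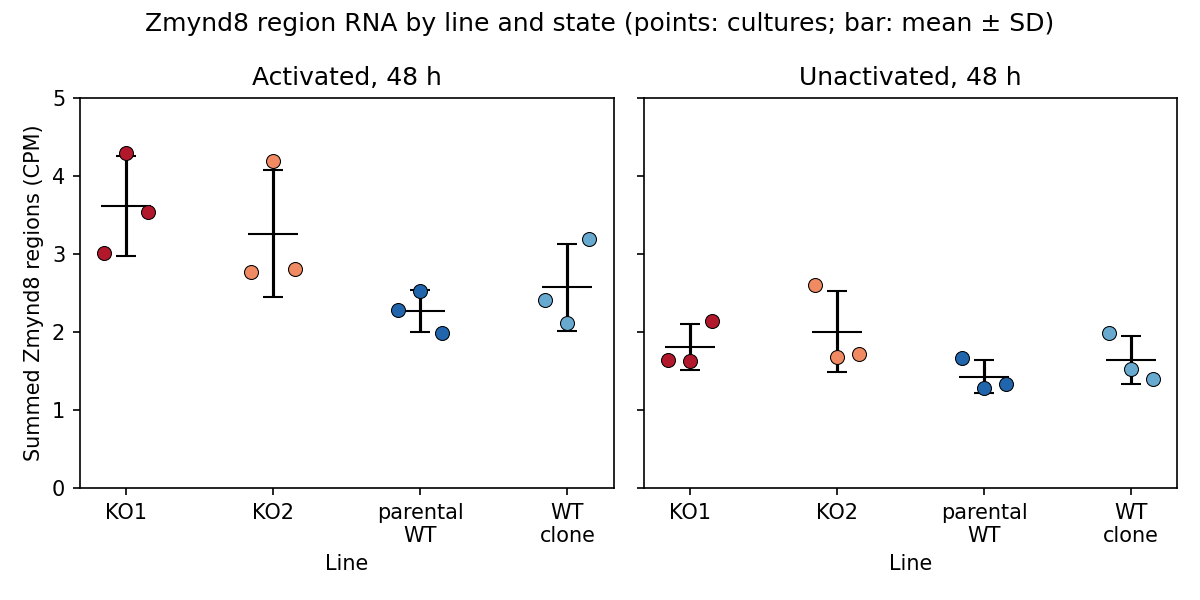
Summed counts of the 6 Zmynd8 regions in CPM (vertical axis, linear, from 0) for each line (horizontal axis), with activated cells in the left panel and unactivated cells in the right; points are single cultures and bars show the mean ± SD of 3. The 6 activated KO cultures lie between 2.77 and 4.29 CPM and the 6 activated WT cultures between 1.99 and 3.19 CPM.

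The comparison of KO with WT lines asks whether the gene's own RNA differs where the protein is labelled as missing. Mean Zmynd8 region RNA was higher in the knockout lines than in the WT lines in both states, and the difference passed the test in activated cells only. There it rose 1.42-fold in KO against WT (95% interval 1.13 to 1.78), a log2 change of 0.50 ± 0.16 (SE) with an edgeR quasi-likelihood Benjamini-Hochberg adjusted p of 0.0446. In that comparison 6.46% of the gene values tested were called higher, and the exact two-sided permutation p of 6 against 6 libraries was 0.0130. The call is close to the 0.05 threshold and was lost when any 1 of 8 of the 12 libraries was left out: each of the 3 parental WT cultures, WT clone 1 or 2, KO1 2 or 3, or KO2 2, with log2 changes of 0.39 to 0.60 and adjusted p of 0.0240 to 0.173 over the 12. It was also lost with DESeq2, where the adjusted p was 0.0550, and with counts summed per line, where it was 0.104. The summed plasma cell markers, mostly Irf4, were also higher in all 6 activated KO than in all 6 activated WT libraries. How many gene values separate in this way was not counted. The summed B cell markers ran higher too, with a slight overlap: 48.2 to 65.5 CPM in activated KO and 28.1 to 48.8 CPM in activated WT libraries. The part of either marker set in the Zmynd8 value was not tested.

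In unactivated cells the ratio of KO to WT was 1.24 (95% interval 0.976 to 1.59), a log2 value of 0.31 ± 0.17 with an adjusted p of 0.329 by the same edgeR test. In that state 3.71% of the gene values tested were called higher, and the exact permutation p was 0.0779. Without the 2 unactivated WT libraries that stand apart the log2 value was 0.27, with an adjusted p of 0.517.

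Each knockout line was also set against each WT line. In activated cells the log2 values were 0.67 for KO1 against parental WT, 0.49 for KO1 against the WT clone, 0.52 for KO2 against parental WT and 0.34 for KO2 against the WT clone. In unactivated cells they were 0.34, 0.14, 0.49 and 0.29 in the same order of pairs. All 8 values were above 0 and none passed the test alone, the lowest edgeR adjusted p being 0.137 for KO1 against parental WT in activated cells; at an unadjusted p under 0.05, 3 of the 4 activated pairs and none of the unactivated pairs passed. The share of gene values called was 2.2%, 3.13%, 4.04% and 6.42% in the activated pairs and 2.22%, 3.35%, 2% and 3.73% in the unactivated ones. Against both WT lines together, KO1 had a value of 0.58 (adjusted p = 0.0958) and KO2 of 0.43 (adjusted p = 0.208) in activated cells, where 4.29% and 7.73% of gene values were called, and 0.24 and 0.39 in unactivated cells, where 4.04% and 4.13% were called.

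The 2 knockout lines did not differ beyond their spread. The log2 value of KO1 against KO2 was 0.15 in activated cells (95% interval −0.31 to 0.60) and −0.15 in unactivated cells (−0.63 to 0.34), with exact permutation p of 0.5 in both, where 3 against 3 cultures cannot go below 0.1. For the WT clone against parental WT it was 0.19 in activated cells (−0.28 to 0.65) and 0.20 in unactivated cells (−0.31 to 0.70), again with exact permutation p of 0.5. These intervals reach differences of about the size seen between KO and WT lines. The gene values called in these line pairs were 0.155% and 0% for the KO lines and 0.0888% and 0.133% for the WT lines, each with activated cells given first; the 0% stands beside 210 gene values at an unadjusted p under 0.05 in edgeR and 2 called by DESeq2.

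Activation asks how the gene responds to stimulation of the cells. Zmynd8 region RNA rose on activation in both genotypes, and in each of the 4 lines all 3 activated cultures lay above all 3 unactivated ones. In the KO lines it rose 1.80-fold (95% interval 1.43 to 2.26), a log2 change of 0.85 ± 0.16 with an edgeR adjusted p of 2.25e-04, where 22.6% of the gene values were called higher. In the WT lines it rose 1.58-fold (1.24 to 2.00), a log2 change of 0.66 ± 0.17 with an edgeR adjusted p of 0.00469, where 16.4% were called higher. The exact permutation p was 0.00216 in the KO lines, the smallest that 6 against 6 can give, and 0.00433 in the WT lines. How many gene values separate their cultures by state in every line was not counted. The median log2 change over all gene values was also above 0, at 0.25 in KO and 0.18 in WT lines.

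Many gene values shift upward on activation, so the scaling matters here. With scaling on the numbered regions alone the median over all gene values moved by −0.32 in the KO and −0.21 in the WT comparison, and the calls moved from 1019 higher and 217 lower to 527 and 561 in KO, and from 740 and 258 to 502 and 499 in WT. Set against the median of all gene values, the Zmynd8 change was 0.60 under the main scaling and 0.61 under the other in KO lines, and 0.48 under both in WT lines. The WT call was lost under that scaling, at a log2 value of 0.45 with an adjusted p of 0.0586. In the activated comparison of KO with WT the same step moved the calls from 291 higher and 113 lower to 242 and 153, and the Zmynd8 value to 0.43 with an adjusted p of 0.0953.

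By line, the activation change was 0.99 in KO1 (edgeR adjusted p = 0.00292), 0.70 in KO2 (adjusted p = 0.0381), 0.65 in the WT clone (adjusted p = 0.0711) and 0.66 in parental WT (adjusted p = 0.0721). The share of gene values called was 15.5%, 14.6%, 12.6% and 12.2% in these lines. The difference between the genotypes in the activation change was 0.19 ± 0.23 (95% interval −0.29 to 0.67, edgeR adjusted p = 0.863), where 0.755% of the gene values were called, so no difference between the genotypes in their response was shown.

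**Figure D2:**
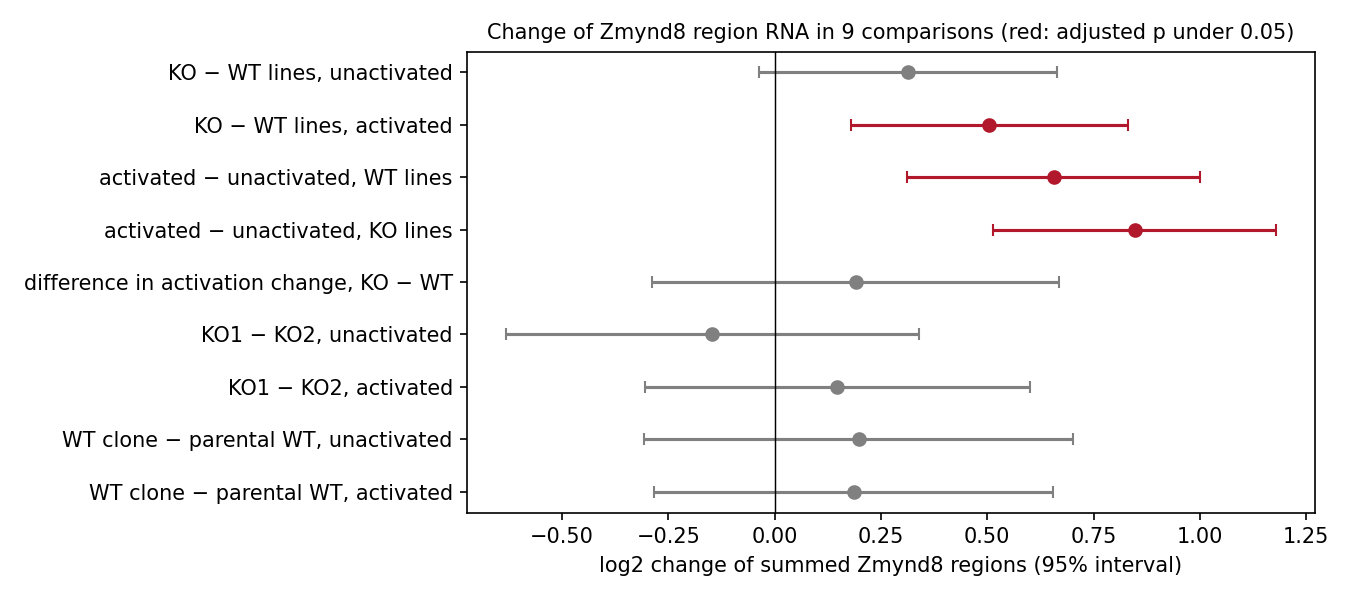
Log2 change of the summed Zmynd8 regions (horizontal axis) in 9 comparisons (vertical axis), with 95% intervals from the edgeR quasi-likelihood model; red points have an adjusted p under 0.05 over 4503 gene values and grey points do not. Both activation changes and the activated KO against WT change are red, and the intervals of the 4 line pairs and of the difference between genotypes all include 0.

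Ordered by their means, the 8 groups ran 3.62 ± 0.643 CPM in activated KO1, 3.26 ± 0.812 in activated KO2, 2.58 ± 0.555 in the activated WT clone, 2.27 ± 0.267 in activated parental WT, 2.01 ± 0.522 in unactivated KO2, 1.81 ± 0.293 in unactivated KO1, 1.64 ± 0.311 in the unactivated WT clone and 1.43 ± 0.208 CPM in unactivated parental WT (SD, n = 3 each). Each gap between neighbours in this order was smaller than the larger SD of the pair. The activated groups took the first 4 places, and within each state both KO lines came before both WT lines.

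Along the gene, the counts were concentrated near the 3′ end. Region_28981 (chr2:165791605-165794786, 3182 bases) held 1176 of the 1807 counts, or 65.1%. Region_28980 (chr2:165787742-165788587, 846 bases) held 252, region_28984 (chr2:165819411-165820102) 151, region_28983 (chr2:165811457-165812066) 127 and region_28982 (chr2:165801937-165802508) 100. Set per kb, the mean level over all libraries was 0.475 CPM in region_28981 and 0.384 in region_28980, against 0.227 to 0.282 CPM per kb in the 3 regions farther from the 3′ end. The level per length was therefore closer between the 5 regions than their counts.

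Between the outermost listed start and the 5′ end of the span, the only member is region_28986, and it held almost no RNA. The rest of that stretch has no member region, so the Zmynd8 sum does not cover its RNA. Region_28986 (chr2:165892749-165893037, 289 bases) had 1 count, in parental WT activated replicate 3, and 0 counts over the 12 KO libraries. A count of 0 there allows up to 0.00774 CPM, taking 3 counts over the 12 libraries as the limit. The level of 1 count is too low for any comparison.

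**Figure D3:**
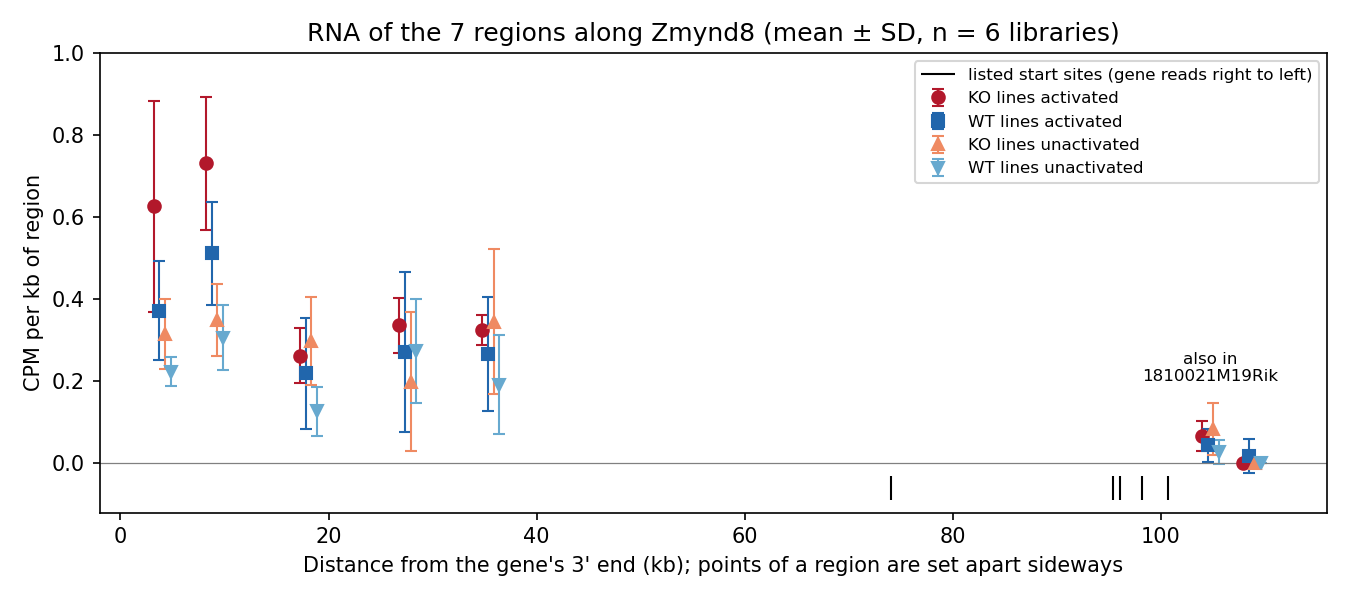
Mean CPM per kb of region ± SD over 6 libraries (vertical axis) for the 6 Zmynd8 regions and the region shared with 1810021M19Rik, against distance from the 3′ end of the gene in kb (horizontal axis); points of 1 region are set apart sideways and black ticks mark the 5 listed RefSeq starts. The 2 regions nearest the 3′ end are highest in activated KO cells, and the 2 regions between the outermost listed start and the 5′ end of the span have mean levels of at most 0.0835 CPM per kb in all groups.

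Only region_28980 and region_28981 had enough counts to be tested singly; the other 4 members, with 21.0% of the counts together, did not pass edgeR's filter on low counts. Region_28981 had 56 to 97 counts (median 78) in activated KO and 38 to 81 (median 52.5) in activated WT libraries, and 22 to 46 (median 35.5) in unactivated KO and 22 to 41 (median 27.5) in unactivated WT libraries. Region_28980 had 11 to 29 counts (median 15.5) in activated KO and 7 to 16 (median 9.5) in activated WT libraries, and 4 to 10 (median 9) in unactivated KO and 5 to 7 (median 5.5) in unactivated WT libraries. For both regions KO and WT libraries overlapped in each state.

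On activation, region_28981 rose in both genotypes and region_28980 in the KO lines. In KO cells the log2 change of region_28981 was 1.06 ± 0.21 (edgeR adjusted p = 0.00134) and that of region_28980 was 0.98 ± 0.29 (adjusted p = 0.0229), and 18.7% of the 11264 regions tested were called higher. In WT cells region_28981 changed by 0.72 ± 0.21 (adjusted p = 0.0220), where 14.3% of regions were called higher, and region_28980 had a log2 value of 0.72 ± 0.30 (adjusted p = 0.110). The region_28981 call in WT was lost without the 2 libraries that stand apart (0.58, adjusted p = 0.0998) and without any 1 of 6 libraries: parental WT unactivated 2 or 3, parental WT activated 1, WT clone unactivated 2 or 3, or WT clone activated 3 (0.63 to 0.83 over the 12, adjusted p up to 0.0666). The region_28980 call in KO was lost without KO1 unactivated 1, KO1 activated 2, KO2 unactivated 3 or KO2 activated 2 (0.73 to 1.10 over the 12, adjusted p up to 0.0902).

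Between KO and WT neither region passed the test. In activated cells the log2 value was 0.53 ± 0.21 for region_28981 (edgeR adjusted p = 0.189) and 0.75 ± 0.29 for region_28980 (adjusted p = 0.172), both at an unadjusted p under 0.05, where 6.92% of regions were called in either direction. In unactivated cells it was 0.19 ± 0.22 (adjusted p = 0.739) and 0.49 ± 0.31 (adjusted p = 0.452), neither under 0.05 unadjusted, where 6.46% of regions were called. Thus the call of the sum in activated cells was not reached by either region alone. Without region_28981 the sum of the other 5 gave 0.49 with an adjusted p of 0.147.

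The 3 middle regions were too thin for the model, so their counts were compared as ratios scaled for depth, with 95% exact intervals that cover counting error only. Region_28982 had 32 counts in unactivated KO against 13 in unactivated WT libraries, which gives 2.36 (1.21 to 4.91), and in activated cells 30 against 25, which gives 1.20 (0.684 to 2.13). Region_28984 had 45 against 24 in unactivated cells, or 1.80 (1.07 to 3.09), and in activated cells 45 against 37, or 1.22 (0.772 to 1.94). Region_28983 had 23 against 30 in unactivated cells, or 0.736 (0.409 to 1.31), and in activated cells 41 against 33, or 1.25 (0.768 to 2.03). These 3 regions thus did not run one way between the genotypes in unactivated cells.

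Their activation ratios also varied in KO cells. There, activated over unactivated counts gave 0.883 (0.519 to 1.50) in region_28982, 1.68 (0.985 to 2.93) in region_28983 and 0.942 (0.609 to 1.46) in region_28984, against 2.08 (1.77 to 2.46) in region_28981 and 1.98 (1.40 to 2.83) in region_28980. The intervals of region_28982 and region_28984 end below the lower bound of region_28981. In WT cells the ratios were 1.74 (0.855 to 3.70), 0.993 (0.587 to 1.69) and 1.39 (0.811 to 2.43) in the 3 middle regions and 1.67 in both of the regions nearest the 3′ end, with intervals that all overlap. The sum of the 5 regions without region_28981 had an activation change of 0.48 in KO and 0.49 in WT cells, with edgeR adjusted p of 0.0748 and 0.110. Both activation calls of the sum were thus lost without region_28981, which holds 65.1% of the counts. Whether they were lost through the fewer counts was not tested, and region_28980 was called alone in KO cells.

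**Figure D4:**
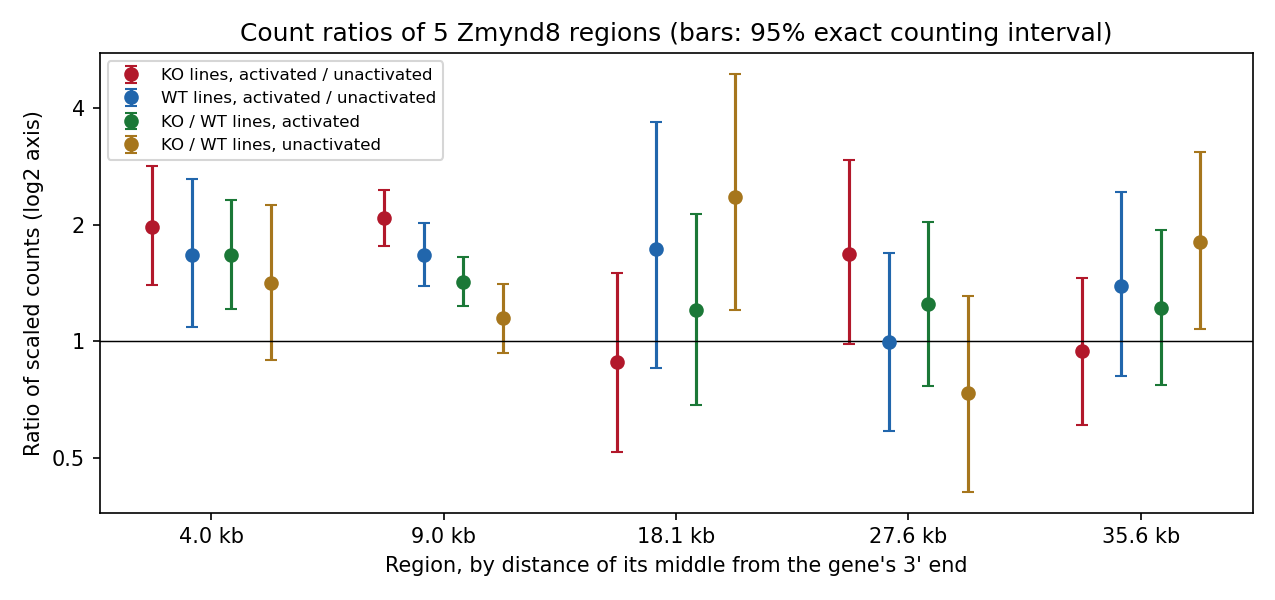
Ratio of depth-scaled counts (vertical axis, log2 scale) in the 5 Zmynd8 regions that lie downstream of the listed starts (horizontal axis, distance of each region's middle from the 3′ end), with 95% exact counting intervals, for activation in KO and in WT lines and for KO over WT in each state. The activation ratio in KO lines is 2.08 in region_28981 and 0.883 in region_28982.

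Whether the KO lines use the 2 testable regions in other proportions was tested with edgeR's test of each region against its gene. The gene stood for these 2 regions alone, so their 2 values in a state are not separate results. The other members did not enter, so the test cannot say whether their proportions differ. It called neither region. The log2 deviation of region_28980 from the gene was 0.13 in activated and 0.17 in unactivated cells, and that of region_28981 was −0.02 and −0.04. None of these 4 values had an unadjusted p under 0.05, and 1.53% of 4246 regions in activated and 1.34% in unactivated cells were called. The share of region_28981 in the Zmynd8 counts was 67.7% in activated KO and 67.2% in activated WT cells, and 58.3% in unactivated KO and 63.5% in unactivated WT cells. By exact permutation of the shares of single libraries, p was 0.853 for KO against WT in activated and 0.355 in unactivated cells, and 0.0671 for activation in KO and 0.411 in WT lines. By line, the share was 73.2% in the activated WT clone and 60.5% in activated parental WT, and in unactivated cells it was 64.8% in the WT clone and 62.1% in parental WT.

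A seventh region overlaps Zmynd8 but was kept out because it lies also inside 1810021M19Rik, an RNA gene within the span. Region_28985 (chr2:165888336-165889471) had 49 counts in all, 0.0556 CPM per kb. It had 15 counts in activated KO against 10 in activated WT libraries, a ratio of 1.50 (0.632 to 3.74), and 18 against 6 in unactivated cells. Adding it to the sum left every Zmynd8 call as it was.

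By correlation of mean log2(CPM + 1) over the 8 groups, the gene values most like Zmynd8 were Fam107b (Pearson r 0.980), Grk2 (0.977), a kinase of G protein-coupled receptors, Auh (0.976), a mitochondrial enzyme of leucine breakdown, Tcf12 (0.972), an E protein transcription factor, and N4bp1 (0.970). Of 364 gene values with at least 5 CPM in a group, 57 had r of at least 0.9, and the median r was 0.609. Over the 24 single libraries r was lower, at 0.695 for Fam107b, 0.805 for Grk2, 0.639 for Auh, 0.680 for Tcf12 and 0.898 for N4bp1. The points share their libraries and the activation step, so the values are a description. Grk2 had 5.34 ± 0.715 CPM in activated KO and 3.89 ± 0.389 in activated WT cells, and 2.52 ± 0.730 in unactivated KO and 1.92 ± 0.549 CPM in unactivated WT cells. Its likeness over the groups is what chose it. Both Grk2 and N4bp1 passed the 5 CPM limit through activated KO cells alone. N4bp1 had 5.64 CPM there, against 2.99 CPM in activated WT cells.

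Genes were taken from 5 lists, of partners of ZMYND8 and of proteins that share its domains. The partners were the NuRD complex, the zinc finger proteins Zfp592, Zfp532 and Zfp687 that bind it, the KDM5 and LSD1-CoREST demethylases, and the BET proteins with P-TEFb. The last list, with Zmynd11, held other readers with PHD, bromo and PWWP domains and was not chosen as partners. Of 35 genes, 19 had regions to sum and 15 could be tested. Between KO and WT none was called in either state by edgeR. The share of all gene values called in either direction was 8.97% in activated and 6.82% in unactivated cells. At an unadjusted p under 0.05 none of the 15 passed in activated and 1 in unactivated cells. Of all 4503 gene values, 859 passed that limit in activated and 850 in unactivated cells. The median log2 value of the 15 was 0.07 in activated and −0.03 in unactivated cells, beside 0.06 and −0.02 over all gene values. The 1 gene was Zmynd11, a reader of histone H3.3 with the same domain set as ZMYND8, at 0.353 ± 0.095 CPM in unactivated KO and 0.174 ± 0.099 in unactivated WT cells (log2 value 1.01 ± 0.34, adjusted p = 0.0726). On activation Zmynd11 fell in the KO lines to 0.146 ± 0.045 CPM, against 0.353 ± 0.095 CPM unactivated, a log2 change of −1.27 ± 0.34 (edgeR adjusted p = 0.00606), and this was the only call among the 15 there, where 27.4% of gene values were called. The Zmynd11 value in WT lines was −0.61 ± 0.40 (edgeR adjusted p = 0.305), with 0.124 CPM in activated and 0.174 CPM in unactivated cells. In WT lines the only call was Mta3, a NuRD subunit known from germinal centre B cells, at 3.78 ± 0.351 CPM in activated and 2.83 ± 0.378 CPM in unactivated cells, a log2 change of 0.42 ± 0.12 (edgeR adjusted p = 0.0144), where 22.2% were called. The Mta3 call was lost without parental WT unactivated 2, WT clone unactivated 3 or WT clone activated 2 (0.36 to 0.48 over the 12, adjusted p up to 0.0640). In KO lines the Mta3 value was 0.28 ± 0.12 (edgeR adjusted p = 0.0998). The median activation value of the 15 was 0.28 in KO and 0.10 in WT lines, beside 0.25 and 0.18 over all gene values.

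On the lower side, the nearest genes with a testable region sum were Eya2 (12.4 kb), Elmo2 (457.67 kb) and Cd40 (712.5 kb). On the higher side they were Platr29 (74.3 kb), Ncoa3 (93.7 kb) and Prex1 (667.36 kb). In unactivated cells Ncoa3, a coactivator of nuclear receptors, fell in KO to 9.12 ± 2.30 CPM, against 16.8 ± 7.99 CPM in WT, a log2 change of −0.88 ± 0.25 (edgeR adjusted p = 0.0307); none of the other 5 was called between KO and WT in either state, beside 6.82% of all gene values called in unactivated and 8.97% in activated cells. The Ncoa3 call was lost without the 2 libraries that stand apart (−0.77, adjusted p = 0.0701) and without any 1 of 6 libraries: parental WT 3, WT clone 1, KO1 2 or 3, or KO2 2 or 3 (−1.04 to −0.63 over the 12, adjusted p up to 0.131). In activated cells the Ncoa3 value was 0.01 ± 0.25. Cd40, a receptor through which T cells activate B cells, rose on activation by 1.57 ± 0.33 in KO (edgeR adjusted p = 6.5e-04) and by 1.43 ± 0.32 in WT lines (adjusted p = 0.00123), to 0.621 CPM in activated against 0.207 CPM in unactivated KO cells and 0.695 against 0.253 CPM in WT cells, beside 22.6% of gene values called higher in KO and 16.4% in WT lines. Eya2, closest to the 3′ end of Zmynd8, had 0.360 ± 0.088 CPM in activated KO and 0.334 ± 0.095 in activated WT cells, and was not called in any of the 4 comparisons of genotype or state.

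Outside genes, 9 numbered regions lie within 100 kb of the span, and 5 could be tested. Region_28979, 1.26 kb beyond the 3′ end, had at most 5 counts in any library. Between KO and WT 1 region was called: region_28993 (chr2:165970675-165973317), 71.7 kb upstream, was higher in unactivated KO, at 0.322 ± 0.155 CPM against 0.146 ± 0.072 CPM in WT (log2 change 1.07 ± 0.32, edgeR adjusted p = 0.0498), beside 6.46% of all regions called in unactivated and 6.92% in activated cells. That call was lost without any 1 of 10 of the 12 libraries, all but parental WT 2 and KO1 2, and without the 2 libraries that stand apart (0.92, adjusted p = 0.152). Platr29 begins 74.3 kb from the span, directly beyond the end of region_28993. The KO against WT log2 values of Platr29 were 1.08 ± 0.59 in unactivated and 1.16 ± 0.46 in activated cells. Neither was called (edgeR adjusted p = 0.332 and 0.137). Region_28991, 55.7 kb upstream, rose on activation in the KO lines by 1.25 ± 0.23 (adjusted p = 6.6e-04), where 18.7% of regions were called higher. Its value in the WT lines was 0.49 ± 0.23 (edgeR adjusted p = 0.156). In the WT lines region_28993 rose by 0.99 ± 0.31 (adjusted p = 0.0313), where 14.3% were called higher, a call lost without any 1 of 7 of the 12 libraries (parental WT unactivated 1 or 3, parental WT activated 2, WT clone unactivated 2 or 3, WT clone activated 1 or 3; 0.85 to 1.36 over the 12). The region_28993 value in the KO lines was 0.18 ± 0.30 (edgeR adjusted p = 0.757).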

How the data were processed

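Total RNA of 24 CH12 libraries was sequenced as stranded, single-end reads after ribosomal depletion, per the labels' protocols. The authors deposited 1 table per library, made by kallisto 0.43.0 per the submitters' processing notes, with an estimated count for each of 171152 targets (121400 of them transcripts). The build in those notes is GRCm38.p5; DESeq2 is named there too. The sources used here do not give the annotation release, index options or strand setting. Reads that fit a region and a transcript are shared by kallisto's model, so a region inside Zmynd8 can lose reads to a Zmynd8 transcript. Transcripts were not tied to genes, so those of Zmynd8 were not analysed. The authors' kallisto tables also hold TPM values as deposited, scaled for length and depth, which were not used, and another 9 samples of the series were not analysed here.

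Regions were placed by RefSeq spans of GRCm38.p6, and positions count from 1. With 12 whole-locus annotation entries dropped, this gave 10750 gene values. Estimated counts were rounded to whole numbers, and TMM factors were taken over all targets. Targets and gene values were kept by edgeR's filterByExpr, which left 61074 targets (11264 regions) and 4503 gene values. One edgeR quasi-likelihood model with 8 group means was fitted to each (edgeR 4.0.16, limma 3.58.1, R 4.3.3), with Benjamini-Hochberg adjustment over all features and a threshold of 0.05. The exact permutation tests are two-sided and take cultures of a line as independent.

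The regions, lists and tests were chosen with earlier results of these data known. Genes named are Zmynd8, the 5 most correlated gene values not Gm or Rik named, called members of the lists of partners and domain relatives, the 3 nearest tested genes on each side and all regions of the locus. Grk2 was picked from the 5 most correlated for its values after they were seen. No library was counted as a repeat of another, since the chi-square per degree of freedom between cultures of a group was 11.9 to 84.6. Same-numbered cultures were checked for pairing. The alternatives were relative log expression scaling, scaling on regions alone, DESeq2 1.42.0, no low-count filter, a replicate block, counts summed per line, only the libraries compared, other sets of regions or lines, a stricter filter of 10 counts in 6 libraries for region usage, each library left out, and, chosen after seeing the data, leaving out the 2 libraries that stand apart.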

Additional observations from a re-analysis of the deposited data

Results flagged for a closer look

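In unactivated KO1 culture 1, region_28980 stood at 0.127 CPM, from 4 counts, far below the other 5 unactivated KO libraries at 8 to 10 counts. It was the 1 library that stood so far from its group among 12 groups of 6 examined, where chance gives about 1 in 20. Leaving this culture out ends the activation call of region_28980 in the KO lines.

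Region_28985, which lies inside both Zmynd8 and 1810021M19Rik and entered no Zmynd8 sum, had 18 counts in unactivated KO against 6 in unactivated WT libraries, a ratio of 2.88 (95% exact counting interval 1.10 to 8.87). The interval covers counting error only. The count ranged from 0 to 6 in KO and from 0 to 3 in WT libraries, so the groups overlapped.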

How the results depend on the processing

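The activated KO against WT rise of Zmynd8 kept its direction in all 25 alternatives and its call in 8. It lost the call with scaling on regions alone (0.43), no low-count filter (0.51), DESeq2 (0.50), counts summed per line (0.50), without the region with the most counts (0.49), with KO1 alone (0.58), KO2 alone (0.43), against parental WT alone (0.60) or the WT clone alone (0.41), and in 8 of 12 fits with a library left out (0.39 to 0.60). The activation call in WT lines was lost with scaling on regions alone (0.45) and without the region with the most counts (0.49), and the KO call without that region (0.48); with each library left out they ran from 0.56 to 0.74 and from 0.73 to 0.96, with no call lost. The sign turned, never with a call, for the WT clone against parental WT in activated cells without the largest region (−0.37) and with each library left out (−0.00018 to 0.31), for KO1 against KO2 unactivated with each library left out (−0.29 to 0.089), and for the difference between genotypes in the activation change without the largest region (−0.010). The number of Zmynd8 regions called on activation fell to 0 in WT and to 1 in KO, from 1 and 2, with counts summed per line, scaling on regions alone or no low-count filter, and to 0 in WT without the 2 libraries that stand apart. The cause was not tested.

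Cultures with the same number did not deviate together in every comparison. The lowest correlation of deviations was −0.38, for the WT clone against parental WT in unactivated cells, and some cultures were most like one of another number. In activated KO against WT, same-numbered cultures were the most alike, at 0.157, 0.0968 and 0.237, against at most 0.0229 for another number. Pairing by number was thus mixed, and the main model does not use it. With a replicate block the activated KO against WT value was 0.50 with an adjusted p of 0.0458, and no Zmynd8 call changed. Precision is limited by depth: the sum rests on 38 to 140 counts per library, and 4 of the 6 regions could not be tested singly.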
